A study of Mus musculus with 6 samples.

Results

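The genes described here are those of homologous recombination, the Fanconi pathway and the response to replication stress, chosen by symbol as a list of 40. Of these, 39 were found as the single annotated symbol of a probe set, among 20239 named genes on the arrays; Xrcc2 is not analysed here. The 1-colour arrays were hybridised with total RNA of pericytes isolated from C57BL/6 mice, the mural cells that wrap capillaries. There were 3 arrays of cells given 100 ng/ml of PDGF-BB (platelet-derived growth factor BB) for 5 days and 3 arrays of control cells kept for 5 days. PDGF-BB signals to pericytes through the receptor tyrosine kinase PDGFR-β. The sources used here do not give the organ of origin, the passage or any pooling of cells or animals. The labels number the arrays 1 to 3 in each group without saying whether they were separate cultures, so p-values here rest on the spread among 6 samples that may be technical replicates.

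Homologous recombination repairs a DNA double-strand break by copying the sister chromatid. The break is first bound by the MRE11-RAD50-NBN complex and resected by nucleases. BRCA2, brought in through BRCA1, BARD1 and PALB2, then prepares the single strand for pairing with the sister chromatid. The Fanconi core complex ubiquitinates FANCD2 and FANCI at crosslinked DNA, and the kinase ATR, through CHK1, slows S phase when forks stall. Many of these genes are transcribed mainly in S and G2 phase. In bulk RNA, a larger share of cells expressing a gene and more RNA per cell cannot be told apart.

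Pericytes given PDGF-BB had more mRNA of most of these genes. Of the 39 measured, 28 rose, 2 fell and 9 did not pass the test, which was limma's moderated test with p-values Benjamini-Hochberg adjusted over all 20239 genes and a threshold of 0.05. Of all genes, 10.1% rose and 11.4% fell. The median log2 change (PDGF-BB minus control) of the 39 was 0.67, against -0.02 over all genes. At least 2-fold increases were seen in 13 of the 39, against 2.04% of all genes. The 13 are Exo1, Brca1, Chek1, Brip1, Fancd2, Fancb, Blm, Rad51ap1, Fanci, Clspn, Fanca, Brca2 and Rad54l. The 3 PDGF-BB arrays lay above the 3 control arrays in 33 of the 39 genes, against 16.9% of all genes, and below them in 2, against 20.6% of all genes.

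Promoter sequences of 5 members follow, to show what the upstream regions of genes that moved differently look like. They comprise Brca1, which rose most among members with an entry, and the 4 members that hold an E2F-type motif before the start. Of those 4, Brca2 and Bard1 rose, Fancg fell and Chek2 did not pass. Each is the 250 bases before the annotated start, 5′ to 3′ in the direction of transcription, from RefSeq (GRCm38.p6). Capitals mark E2F-type letters (TTTCCCGC or TTTGGCGC), letters of the cell cycle homology region type (TTTGAA or TTCGAA) and CCAAT, each searched on both strands. Brca1 lies at chr11:101551956-101552205 on the minus strand, Brca2 at chr5:150522371-150522620 on the plus strand, and Bard1 at chr1:71102973-71103222 on the minus strand. Fancg lies at chr4:43010302-43010551 on the minus strand and Chek2 at chr5:110839733-110839982 on the plus strand.
Brca1: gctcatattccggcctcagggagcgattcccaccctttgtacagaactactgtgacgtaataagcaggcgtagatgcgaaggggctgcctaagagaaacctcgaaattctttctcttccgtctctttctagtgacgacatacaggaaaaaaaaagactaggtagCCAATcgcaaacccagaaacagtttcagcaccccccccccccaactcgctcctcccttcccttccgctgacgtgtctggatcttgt
Brca2: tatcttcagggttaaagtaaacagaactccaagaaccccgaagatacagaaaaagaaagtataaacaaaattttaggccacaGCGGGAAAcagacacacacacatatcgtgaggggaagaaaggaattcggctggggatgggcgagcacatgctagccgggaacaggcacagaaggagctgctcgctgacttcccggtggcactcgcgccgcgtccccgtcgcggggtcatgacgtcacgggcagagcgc
Bard1: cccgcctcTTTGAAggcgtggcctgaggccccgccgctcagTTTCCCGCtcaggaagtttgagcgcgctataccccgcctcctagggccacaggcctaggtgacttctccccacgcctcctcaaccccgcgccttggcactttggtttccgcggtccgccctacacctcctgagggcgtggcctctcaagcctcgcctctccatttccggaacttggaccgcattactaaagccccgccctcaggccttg
Fancg: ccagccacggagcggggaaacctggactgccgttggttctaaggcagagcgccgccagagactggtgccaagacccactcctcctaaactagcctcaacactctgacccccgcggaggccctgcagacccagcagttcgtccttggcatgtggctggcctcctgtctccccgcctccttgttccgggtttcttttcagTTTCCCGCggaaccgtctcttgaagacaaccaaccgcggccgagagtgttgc
Chek2: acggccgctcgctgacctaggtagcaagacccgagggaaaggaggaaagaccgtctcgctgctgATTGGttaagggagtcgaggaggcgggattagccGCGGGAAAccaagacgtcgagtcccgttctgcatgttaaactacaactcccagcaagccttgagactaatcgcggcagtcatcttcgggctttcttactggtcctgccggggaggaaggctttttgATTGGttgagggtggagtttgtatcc

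RefSeq promoters (250 bases before to 50 after the start, the first entry of each gene) were matched to 32 of the 39 members and to 15651 of all genes. E2F-type letters stood in 5 of the 32 (15.6%), in Brca2, Bard1, Msh6, Fancg and Chek2, in 11 of 27 DNA replication promoters, and in 2.28% of all promoters. In Msh6 the match lay after the start. By direction, 3 of the 24 members that rose and 2 of the 8 others held them. CCAAT stood in 18 of the 32 (56.2%) and in 38.5% of all promoters, and the homology region letters in 4 (12.5%) and in 16.9%. No motif's letters contain those of another. A match is a description of letters in this window, not a binding site.

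**Figure D1:**
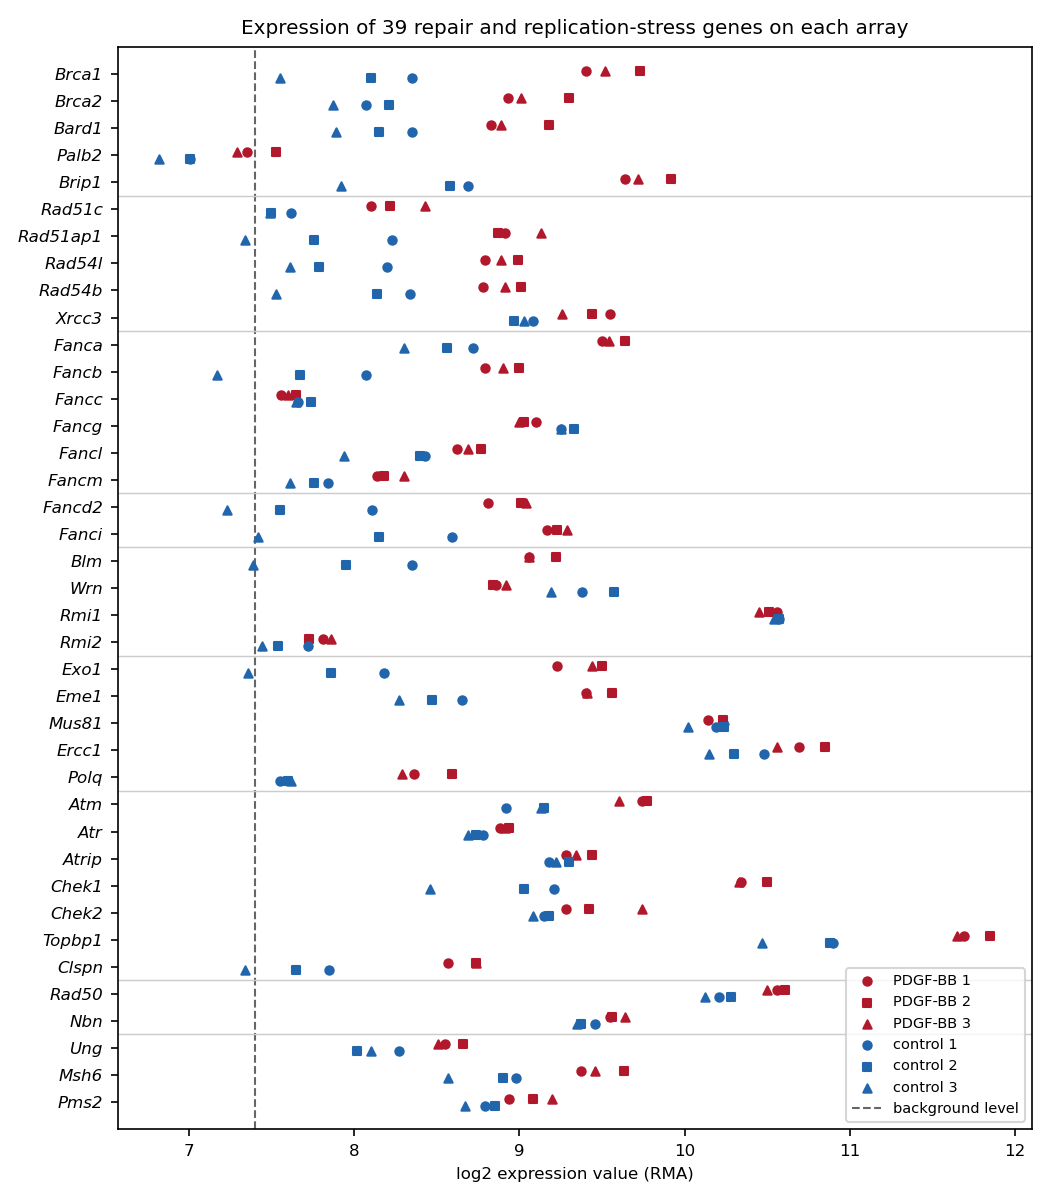
Expression of the 39 genes on each array, in log2 RMA values, with a row per gene, red for PDGF-BB and blue for control, and a marker shape per array number. Grey lines separate the role groups in the order of the text, and the dashed line is the background level of 7.40. In most rows the red markers lie to the right of the blue ones, and the blue ones are spread more widely, with control array 3 leftmost in many.

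The BRCA1 and BRCA2 group, which acts on resected DNA, rose in all 5 measured members, against 10.1% of all genes. Brca1 (Entrez gene 12189), the ubiquitin ligase subunit and scaffold of the pathway, had log2 values of 9.40, 9.73 and 9.52 on the PDGF-BB arrays and 8.35, 8.10 and 7.55 on the control arrays. The groups did not overlap, and control array 3 was lowest. The change was 2.93-fold (log2 change 1.55, SE 0.20, 95% interval 1.08 to 2.02, adjusted p = 0.0029, limma). Brip1, the BRCA1-bound helicase also known as FANCJ, had 9.64, 9.92 and 9.72 with PDGF-BB and 8.69, 8.58 and 7.92 in control, a 2.58-fold rise (adjusted p = 0.0043, limma). Brca2, the mediator of strand pairing, had 8.93, 9.30 and 9.01 with PDGF-BB and 8.07, 8.21 and 7.87 in control. It rose 2.04-fold (SE 0.12 on the log2 scale, adjusted p = 0.0025, limma), and its control arrays were closer together than those of Brca1. Bard1, the obligate partner of BRCA1 in the ligase, rose 1.79-fold (log2 change 0.84, SE 0.14). Palb2, which bridges BRCA1 and BRCA2, had means of 7.39 with PDGF-BB and 6.95 in control, both under the background level of 7.40. Its log2 change was 0.44 (adjusted p = 0.013, limma), and no fold is given. The background level is the 90th percentile of the mean levels of 18 markers of lymphocytes, mast cells and erythroid cells, which were taken as absent from pericytes.

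Genes of the strand pairing step also rose, in all 5 of 5 measured, against 10.1% of all genes. Rad51c, which acts in recombination and at stalled forks, had 8.10, 8.22 and 8.43 with PDGF-BB and 7.62, 7.50 and 7.49 in control. Its arrays did not overlap between groups, and it rose 1.64-fold (log2 change 0.71, SE 0.09, adjusted p = 0.0031, limma). Rad51ap1, which stimulates strand pairing, had 8.91, 8.87 and 9.13 with PDGF-BB and 8.23, 7.76 and 7.34 in control. It rose 2.29-fold (adjusted p = 0.0079, limma), with an SD of 0.14 with PDGF-BB and 0.44 in control. Rad54l, the DNA motor protein of strand pairing, had 8.79, 8.99 and 8.89 with PDGF-BB and 8.20, 7.79 and 7.61 in control, a 2.03-fold rise. Rad54b, a relative of it, rose 1.86-fold (log2 change 0.89, adjusted p = 0.019, limma). Leaving out PDGF-BB array 2 or 3 ended that call (adjusted p = 0.061 and 0.059). Xrcc3, the partner of RAD51C, rose 1.31-fold (log2 change 0.39, adjusted p = 0.017, limma). The Xrcc3 call ended when PDGF-BB array 1 (adjusted p = 0.051) or 2 (0.058) or control array 2 (0.059) or 3 (0.051) was left out.

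The Fanconi genes went different ways within the core complex. Fanca, a large core subunit, had 9.50, 9.64 and 9.54 with PDGF-BB and 8.72, 8.56 and 8.30 in control. Its 2.05-fold rise (log2 change 1.03, SE 0.11, adjusted p = 0.0018, limma) had the smallest p of the core group. Fancb, an X-linked core subunit, had 8.79, 9.0 and 8.90 with PDGF-BB and 8.07, 7.67 and 7.17 in control, a 2.4-fold rise (adjusted p = 0.0067, limma). Control array 3 was the lowest of the 6 for both genes, and for Fancb it lay under the background level, as it also did for Fancd2, Rad51ap1, Clspn, Exo1 and Blm. Fancm, the translocase that anchors the complex to DNA, had 8.14, 8.18 and 8.30 with PDGF-BB and 7.84, 7.76 and 7.61 in control, a 1.39-fold rise (adjusted p = 0.0076, limma). Fancg, a scaffold subunit of the core, had 9.10, 9.03 and 9.0 with PDGF-BB and 9.25, 9.33 and 9.25 in control. This was 1.17-fold lower (log2 change -0.23, 95% interval -0.37 to -0.09, adjusted p = 0.032, limma). Blocking on the replicate number ended the Fancg call (adjusted p = 0.059), as did a trended robust prior (0.068) and leaving out any 1 array (0.054 to 0.10).

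For Fancl, the ubiquitin ligase of the core, the log2 change was 0.44 (adjusted p = 0.060, limma, 95% interval 0.12 to 0.75). It passed when the replicate number was blocked (adjusted p = 0.041), when each array was centred on its median (0.047), when dim genes were left out (0.041) and without control array 1 (0.046). It did not pass without any 1 PDGF-BB array (0.11 to 0.16), and without control array 3 its log2 change was 0.28 (0.050, not past the threshold). Fancc, another core subunit, had a log2 change of -0.08 with an interval of -0.21 to 0.06. The substrates of the core rose together. Fancd2 had 8.81, 9.01 and 9.04 with PDGF-BB and 8.11, 7.55 and 7.23 in control, a 2.5-fold rise (log2 change 1.32, SE 0.21, adjusted p = 0.0055, limma). Fanci had 9.17, 9.23 and 9.29 with PDGF-BB and 8.59, 8.15 and 7.42 in control, a 2.26-fold rise (adjusted p = 0.021, limma). For both, the PDGF-BB arrays were tight and the control arrays spread over a wide range, most of all for Fanci (SD 0.06 with PDGF-BB and 0.59 in control). Leaving out PDGF-BB array 1 (adjusted p = 0.061), 2 (0.057) or 3 (0.067) or control array 2 (0.052) ended the Fanci call.

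The RecQ helicases went opposite ways. Blm, the helicase that dissolves joined recombination intermediates, had 9.06, 9.22 and 9.06 with PDGF-BB and 8.35, 7.95 and 7.39 in control. It rose 2.32-fold (log2 change 1.22, SE 0.22, adjusted p = 0.0092, limma). Wrn, the relative mutated in the human premature ageing disorder Werner syndrome, had 8.86, 8.84 and 8.92 with PDGF-BB and 9.38, 9.57 and 9.19 in control. It was 1.42-fold lower (log2 change -0.51, 95% interval -0.74 to -0.27, adjusted p = 0.012, limma), and this call held under all 12 alternatives. The BLM cofactors did not pass. Rmi1 had a log2 change of -0.05 (95% interval -0.19 to 0.08), and Rmi2 one of 0.24 (0.04 to 0.43, adjusted p = 0.092, limma), which passed without control array 1 (0.029).

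Among nucleases and the polymerase of alternative end joining, 4 of 5 rose, against 10.1% of all genes. Exo1, the exonuclease that resects break ends, had 9.23, 9.50 and 9.44 with PDGF-BB and 8.18, 7.86 and 7.36 in control. Its 3.01-fold rise (log2 change 1.59, SE 0.20, adjusted p = 0.0027, limma) was the largest of the 39 and ranked 108 among all genes by size of increase. Polq, polymerase theta, which joins resected ends through short homologies, had 8.36, 8.59 and 8.29 with PDGF-BB and 7.55, 7.60 and 7.62 in control. It rose 1.77-fold (SE 0.09 on the log2 scale, adjusted p = 0.0017, limma), and here the control arrays were the tighter group (SD 0.15 with PDGF-BB and 0.04 in control). Eme1, the partner of the MUS81 nuclease, had 9.40, 9.56 and 9.41 with PDGF-BB and 8.65, 8.47 and 8.27 in control, a 1.99-fold rise (adjusted p = 0.0018, limma). Mus81 itself had a log2 change of 0.05 (95% interval -0.13 to 0.23). Ercc1, the partner of the XPF nuclease, rose 1.31-fold (adjusted p = 0.041, limma), a call that ended after a repeated quantile normalization (0.052) and when PDGF-BB array 1 (0.11) or 2 (0.12) or control array 2 (0.11) or 3 (0.11) was left out.

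**Figure D2:**
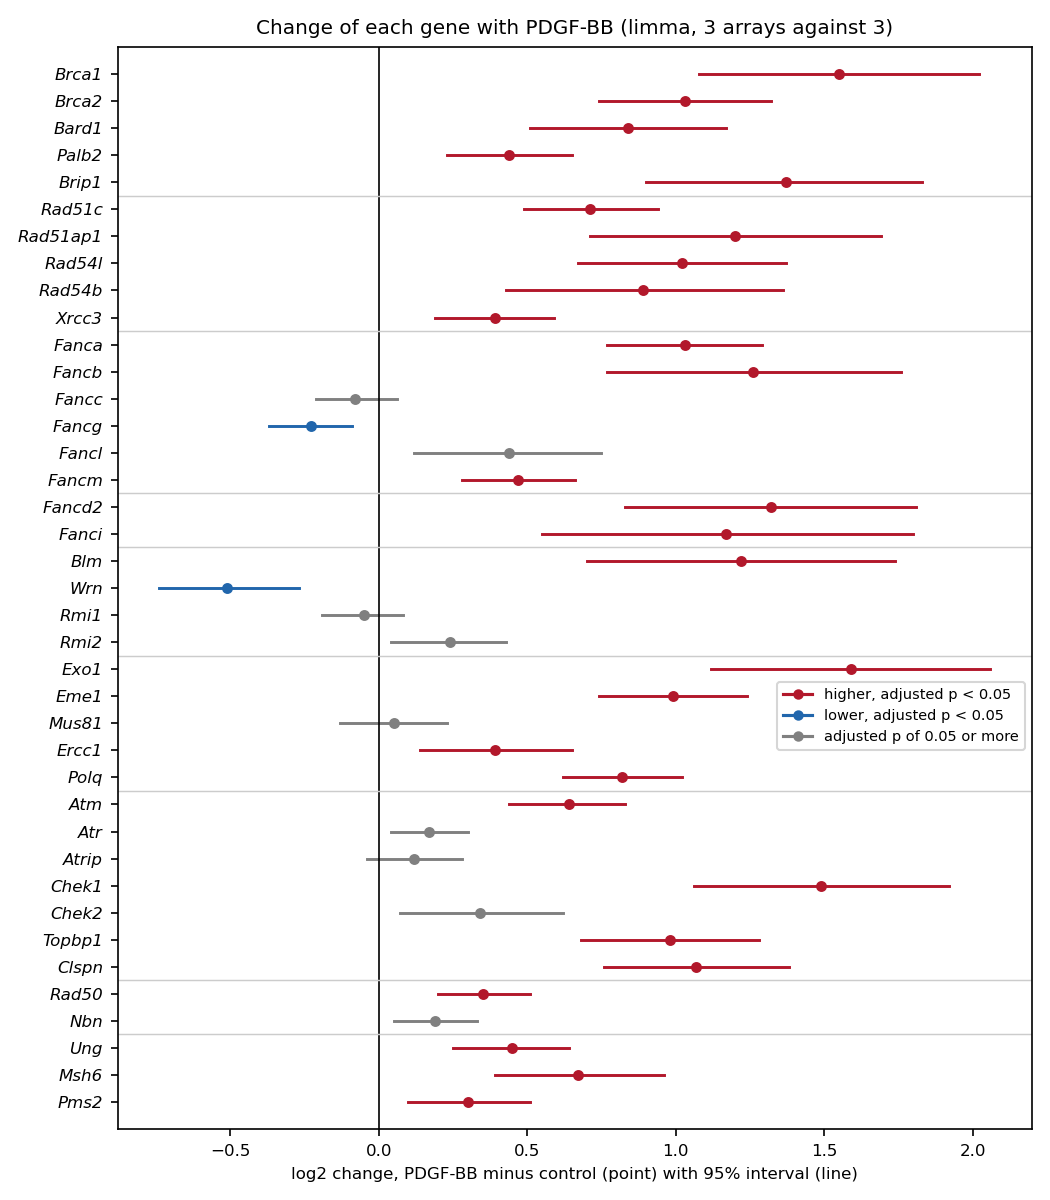
The log2 change of each of the 39 genes, PDGF-BB minus control, as a point with its 95% interval from limma as a line, in red for genes that rose, blue for genes that fell and grey for those that did not pass. Exo1 (1.59), Brca1 (1.55) and Chek1 (1.49) lie farthest right, and Wrn (-0.51) and Fancg (-0.23) are the blue points.

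In the checkpoint group 4 of 7 genes rose and none fell, against 10.1% and 11.4% of all genes. Chek1, the effector kinase of ATR, had 10.34, 10.50 and 10.33 with PDGF-BB and 9.21, 9.03 and 8.46 in control. It rose 2.81-fold (log2 change 1.49, SE 0.18, 95% interval 1.06 to 1.92, adjusted p = 0.0026, limma). Clspn, claspin, the adaptor through which ATR reaches CHK1, had 8.57, 8.74 and 8.74 with PDGF-BB and 7.85, 7.65 and 7.34 in control, a 2.1-fold rise (adjusted p = 0.0026, limma). Both had their lowest value on control array 3. Topbp1, the activator of ATR, had 11.69, 11.85 and 11.65 with PDGF-BB and 10.90, 10.88 and 10.47 in control, a 1.98-fold rise (adjusted p = 0.0029, limma). Atm, the kinase activated by double-strand breaks, had 9.74, 9.77 and 9.60 with PDGF-BB and 8.92, 9.15 and 9.13 in control. It rose 1.55-fold (log2 change 0.64, SE 0.08, adjusted p = 0.0031, limma), and unlike Chek1 and Clspn it was lowest on control array 1.

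The ATR kinase and its partner did not pass. Atr had 8.88, 8.94 and 8.91 with PDGF-BB and 8.78, 8.74 and 8.69 in control, so that its log2 change was 0.17 (adjusted p = 0.071, limma, 95% interval 0.04 to 0.30). The Atr groups did not overlap but lay close together, and the gene passed after a repeated quantile normalization (adjusted p = 0.044). Atrip, which carries ATR to single-stranded DNA, had a log2 change of 0.12 (95% interval -0.04 to 0.28). Chek2, the effector kinase of ATM, had one of 0.34 (0.07 to 0.62, adjusted p = 0.082, limma), and passed without PDGF-BB array 1 (0.046). Leaving out PDGF-BB array 3 gave a Chek2 change of 0.21 (adjusted p = 0.12, limma).

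Of the break sensors, Rad50, the coiled-coil ATPase, had 10.56, 10.61 and 10.50 with PDGF-BB and 10.21, 10.28 and 10.12 in control, a 1.28-fold rise (adjusted p = 0.0095, limma). Its increase was among the most even, at 0.35, 0.33 and 0.38 on the log2 scale within replicate numbers 1, 2 and 3. For Nbn, the subunit that recruits ATM, the log2 change was 0.19 (adjusted p = 0.065, limma, 95% interval 0.05 to 0.33). All 3 members of base and mismatch repair rose, against 10.1% of all genes. Msh6, a mismatch-binding protein, had 9.37, 9.63 and 9.46 with PDGF-BB and 8.98, 8.90 and 8.57 in control, a 1.59-fold rise (adjusted p = 0.0090, limma). Ung, uracil DNA glycosylase, had 8.55, 8.66 and 8.51 with PDGF-BB and 8.27, 8.02 and 8.10 in control, a 1.36-fold rise (adjusted p = 0.0095, limma). Neither overlapped between groups. Pms2, a mismatch repair endonuclease, had 8.94, 9.08 and 9.20 with PDGF-BB and 8.79, 8.85 and 8.67 in control. Its 1.23-fold rise (adjusted p = 0.047, limma) did not pass when the replicate number was blocked (0.064), with a trended robust prior (0.059), or when PDGF-BB array 2 or 3 or any 1 control array was left out (0.066 to 0.14).

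Partners in 6 pairs, chosen after their values were seen, were set against each other as the log2 difference within each array. Chek1 minus Chek2 was 1.06, 1.08 and 0.59 on the PDGF-BB arrays and 0.06, -0.14 and -0.61 on the control arrays. Blm minus Wrn was 0.20, 0.38 and 0.14 with PDGF-BB and -1.03, -1.62 and -1.80 in control. In both pairs every PDGF-BB array lay above every control array. For Blm and Wrn this follows from the single genes, since Blm was higher and Wrn lower on all PDGF-BB arrays than on any control array. Eme1 minus Mus81 averaged -0.74 with PDGF-BB and -1.69 in control, and Atm minus Atr 0.80 with PDGF-BB and 0.33 in control, again without overlap. Rad54l minus Rad54b averaged -0.01 with PDGF-BB and -0.14 in control, and Fancd2 minus Fanci -0.28 with PDGF-BB and -0.42 in control, with overlapping arrays. An exact permutation test of 3 arrays against 3 cannot go below a two-sided p of 0.10, so these differences are a description with no test. They restate the values of the single genes, and how often other pairs of genes separate is not given here.

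The spread of these genes lay mostly in the control arrays. The median log2 value of the 39 was 9.06, 9.22 and 9.13 on the PDGF-BB arrays and 8.59, 8.40 and 7.94 on the control arrays. Control array 3 was the lowest control array for 34 of the 39 (87.2%), against 33.1% of all genes and 58.6% of the genes that rose. The SD was larger in control than with PDGF-BB for 29 of the 39 (74.4%), against 53.8% of all genes and 62.8% of the genes that rose. Among the 13 genes with at least 2-fold increases, the SD was 0.06 to 0.19 with PDGF-BB and 0.17 to 0.59 in control. Within replicate numbers 1, 2 and 3, the median PDGF-BB minus control difference of the 39 was 0.47, 0.73 and 0.75 on the log2 scale. Without control array 3, 25 of the 39 rose, and the median was 0.66. Leaving out each array in turn, 23 to 29 rose.

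Genes of DNA replication and of mitosis moved on the same arrays. All 32 measured DNA replication genes rose (median log2 change 1.21), against 10.1% of all genes. Their median level was 10.42, 10.73 and 10.44 with PDGF-BB and 9.49, 9.20 and 8.85 in control. Of 35 mitosis genes 32 rose (median 1.08), with median levels of 10.72, 10.92 and 11.07 with PDGF-BB and 10.27, 10.18 and 9.35 in control. Control array 3 was the lowest control array for every gene of both lists. The SD was larger in control for 96.9% of the DNA replication genes and 100% of the mitosis genes. Without PDGF-BB array 1, 2 or 3 the mitosis count was 10, 10 or 9. In the same settings 29, 29 or 30 of the 32 DNA replication genes rose, and 26, 23 or 25 of the 39. The part of the share of cycling cells in the change of the 39 was not tested. The lists were set beside each other as a description, and the difference between their medians was not tested.

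**Figure D3:**
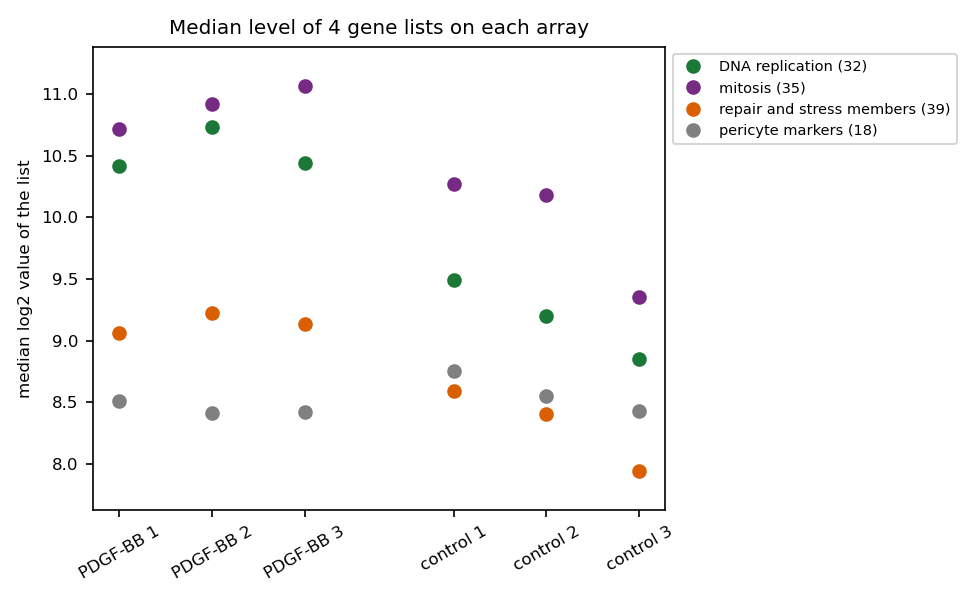
Median log2 value of 4 gene lists on each array, with the PDGF-BB arrays on the left and the control arrays on the right. The 39 members (orange) sit at 9.06 to 9.22 with PDGF-BB and 7.94 to 8.59 in control, and the DNA replication and mitosis lists are also lowest on control array 3.

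Other DNA repair and stress checkpoint genes were taken from 8 lists written from textbook knowledge. Over these lists, 43 of 116 measured rose and 11 fell (37.1% and 9.48%), against 10.1% and 11.4% of all genes. Their median log2 change was 0.19. Of 22 other homologous recombination genes 12 rose and 2 fell. Hrob, which loads the MCM8-MCM9 helicase, rose 3.05-fold and Dna2, a resection nuclease, 2.16-fold (adjusted p = 0.0033 and 0.0021, limma). Zgrf1, a helicase, rose 1.53-fold. Rad52, the annealing protein, had 9.64, 9.44 and 9.63 with PDGF-BB and 10.19, 10.04 and 10.18 in control, 1.48-fold lower (adjusted p = 0.0038, limma). Rad51d, a relative of Rad51c, was 1.22-fold lower (adjusted p = 0.031, limma). The Rad51d call ended when PDGF-BB array 1 (adjusted p = 0.070), 2 (0.061) or 3 (0.089) or control array 1 (0.075) or 2 (0.074) was left out.

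Of 14 other Fanconi genes 4 rose and 0 fell, against 10.1% and 11.4% of all genes. Their median log2 change, -0.02, was that of all genes. The genes that rose included Usp1, which removes ubiquitin from FANCD2 (1.93-fold), Ube2t, the conjugating enzyme of the pathway (1.6-fold), and Fancf, a core adaptor (1.46-fold). Of 31 other stress checkpoint genes 17 rose and 2 fell. H2ax, the histone phosphorylated around breaks, rose 2.01-fold, Timeless, of the fork protection complex, 1.96-fold, and Cdc25b, a phosphatase that activates cyclin-dependent kinases, 1.91-fold (adjusted p = 0.0021 to 0.0022, limma). Rad9b, a paralog of the checkpoint clamp subunit RAD9A, was 1.58-fold lower and Fbh1, a helicase that restrains recombination, 1.29-fold lower. In translesion synthesis, which copies past damaged bases, 3 of 8 rose and 1 fell. Rad18, the ligase that modifies PCNA, rose 1.88-fold and Polh, polymerase eta, 1.63-fold, while Poli, polymerase iota, was 1.53-fold lower. Rev1 rose 1.23-fold (adjusted p = 0.045, limma), a call lost without any 1 array (0.064 to 0.11) and with a trended robust prior (0.054). Of 3 other mismatch repair genes Msh3, which binds insertion and deletion loops, rose 1.5-fold.

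**Figure D4:**
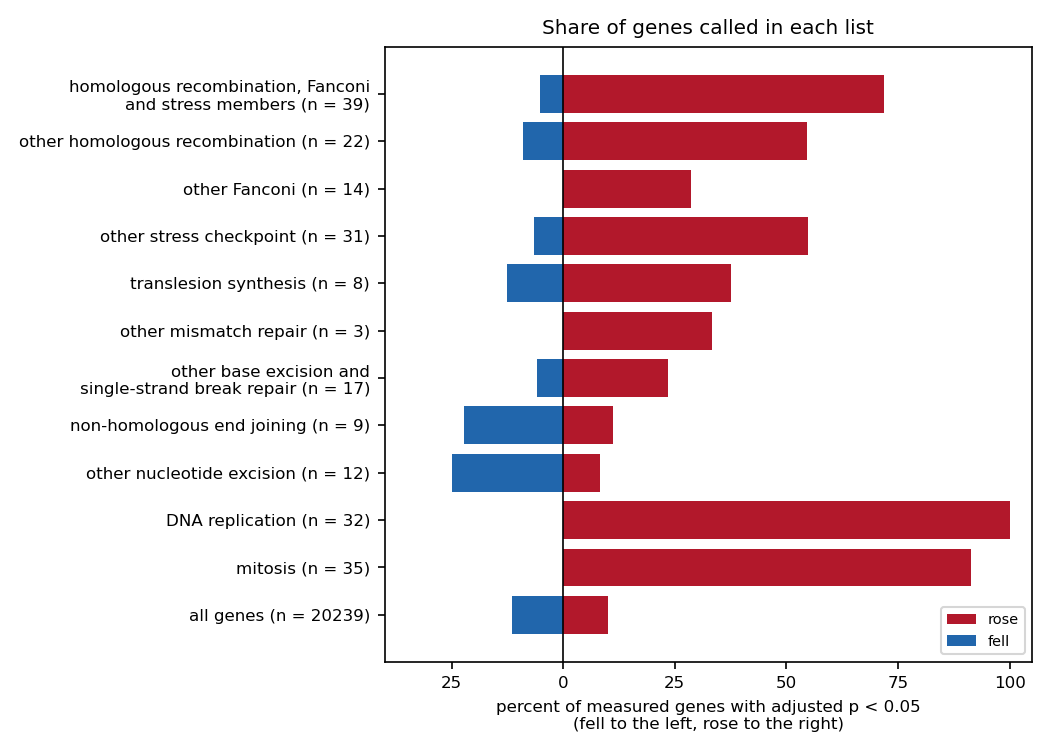
Percent of the measured genes in each list that rose (red, to the right) or fell (blue, to the left) with PDGF-BB at an adjusted p under 0.05, with the number measured beside each name. The members reach 71.8% risen and 5.13% fallen, DNA replication 100%, and all genes 10.1% and 11.4%.

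The arrays were alike in level, with medians of 8.43 to 8.46 on all 6, which the quantile normalization in RMA brings about. They correlated at r = 0.994 to 0.996 within groups and 0.973 to 0.986 between groups. Pdgfrb, the defining receptor of pericytes, had means of 12.85 with PDGF-BB and 12.98 in control, and Cd248, endosialin, of 11.84 with PDGF-BB and 12.17 in control. Rgs5, a further mural cell gene, lay little above background (7.71 with PDGF-BB and 7.77 in control), and Des (7.32 with PDGF-BB and 7.24 in control) and Higd1b (6.34 with PDGF-BB and 6.41 in control) lay under it. Of 18 pericyte markers 1 rose and 2 fell (5.56% and 11.1%), against 10.1% and 11.4% of all genes. Mean levels of 6 of the 18 lay under background, as did those of 6990 of all 20239 genes. Cspg4 did not pass (log2 change 0.91, adjusted p = 0.065, limma), though all its PDGF-BB arrays lay above all control arrays. Mcam did not pass either (-0.52, adjusted p = 0.15, limma), with all PDGF-BB arrays below all control arrays. The peptidase gene Anpep had means of 10.09 with PDGF-BB and 9.22 in control (adjusted p = 0.0028, limma). Acta2, the actin of contractile mural cells, had 12.76, 12.11 and 13.22 with PDGF-BB and 13.83, 13.72 and 13.73 in control, 2.1-fold lower (adjusted p = 0.024, limma), and Cd248 was 1.26-fold lower (0.040). The Acta2 call ended without PDGF-BB array 1 or any 1 control array (adjusted p = 0.058 to 0.067), and that of Cd248 without any 1 array other than control array 1 (0.081 to 0.13). The part of these changes in the result for the 39 was not tested. Of the defining markers of other cells, Pecam1 of endothelium (6.82 with PDGF-BB and 6.91 in control), Ptprc of leukocytes (6.17 with PDGF-BB and 6.17 in control) and Adgre1 of macrophages (5.84 with PDGF-BB and 5.80 in control) lay under background. Other markers lay above it, among them Eng (12.42 with PDGF-BB and 12.36 in control), Egfl7 (9.12 with PDGF-BB and 8.96 in control) and Flt1 (8.39 with PDGF-BB and 8.57 in control) of the endothelial list. Cd68 of the macrophage list (8.96 with PDGF-BB and 9.39 in control) and Cd3e of the lymphocyte list (8.22 with PDGF-BB and 8.27 in control) did so too. Mean levels under background were found in 8 of 14 endothelial and 9 of 12 macrophage markers, against 6990 of all 20239 genes. For the 18 lymphocyte, mast and erythroid markers the count was 16. That count is fixed by definition, because the background level is a percentile of the means of these same 18 markers. It cannot show whether such cells were absent. None of 14 endothelial markers passed in limma. The 1 with an unadjusted p under 0.05 was Cdh5 (log2 change 0.45, adjusted p = 0.1, limma). It had 7.80, 7.88 and 7.23 with PDGF-BB and 7.23, 7.14 and 7.21 in control, where its mean lay under background. Of 12 macrophage markers 0 rose and 2 fell (16.7%), against 10.1% and 11.4% of all genes. Lyz2 fell (log2 change -0.49, adjusted p = 0.0053, limma), with means of 5.80 with PDGF-BB and 6.29 in control, both under background. Cd68 also fell (-0.42, adjusted p = 0.018, limma). The Cd68 call ended without PDGF-BB array 1 (0.067) or 2 (0.058). What part RNA of such cells has in the values of the 39 was not tested. The median level of the endothelial list was 7.21 to 7.38 with PDGF-BB and 7.19 to 7.28 in control, and that of the macrophage list 6.62 to 6.77 with PDGF-BB and 6.77 to 6.82 in control.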

How the data were processed

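The deposited values are log2 expression levels in 1 table. Per the submitters' processing notes they come from RMA, which corrects background, quantile-normalizes the arrays and summarises each probe set. Its software, version and filters are not given here. RMA makes the arrays alike in distribution, which hides a change in total RNA. Of 21225 probe sets, 20239 have exactly 1 symbol in GEO's platform annotation, 986 are unnamed and none has several; each gene had 1 probe set. Whether probes match close relatives was not checked.

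limma 3.58.1 (R 4.3.3) was fitted to the deposited values of all 6 arrays, unfiltered and two-sided, with group alone in the model. The fit was tested on simulated data. Folds are 2 to the power of the size of the log2 change. Precision is limited by the number of arrays. Promoters were searched in Python 3.11.15.

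The members and lists were chosen with earlier results of these data known. All measured members are named. Values on all arrays were given for up to 3 called members with the smallest p per role group, those that fell, and Brca1, Brca2, Fancd2, Chek1, Atm and Atr; of other repair lists, up to 3 called genes per direction were named. The arrays of Rad52, Xpa and Acta2 and the cell markers named were chosen after their values were seen. The older name H2afx was matched to H2ax.

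PDGF-BB and control arrays of the same number deviated from their group means together. The correlation across genes was 0.25, 0.32 and 0.25, against -0.28 to 0.01 for other combinations. The main p-values, SEs and intervals are nevertheless unpaired, and the numbers entered only as a block in an alternative. The block is given where it changed a call. The alternatives tried were quantile normalization applied again, centring of the arrays, leaving out dim genes (those with a mean value under the 50th percentile), adding unnamed probe sets, a trended robust prior, the block, and leaving out each array. No scan date was used.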

Additional observations from a re-analysis of the deposited data

How the results depend on the processing

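The median log2 change of the 39 genes stayed positive under all 12 alternatives, at 0.54 with dim genes left out and 0.61 to 0.75 when an array was left out. The count that rose was 27 to 29 under the other settings with all arrays, and 18 of 26 with dim genes left out, where fewer members were tested. The call of 23 of the 28 genes that rose held under every alternative that tested them, the exceptions being Rad54b, Xrcc3, Fanci, Ercc1 and Pms2. The number that fell was 1, Wrn, with the trended robust prior and with the replicate block, and also whichever array was left out (1 in each case). The cause was not tested. The log2 change of Mus81 was -0.02 to 0.09 when 1 array was left out, the negative value being that without control array 3. The replicate block changed no calls among the 39 beyond those of Fancg, Pms2 and Fancl, and left the counts of 42 other repair genes that rose and 11 that fell. Leaving out 1 array, the mitosis count was 9 to 33, that of all genes that rose 1420 to 2031 and of all that fell 1514 to 2188 (1516 and 1514 without PDGF-BB array 1 and 2). No detection calls were used, so genes near the level of 7.40 may lie at background.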

Other observations

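Repair pathways outside recombination held genes that rose and genes that fell. Of 12 other nucleotide excision repair genes, which remove bulky lesions such as those of ultraviolet light, 1 rose and 3 fell, against 10.1% and 11.4% of all genes. Xpa, the damage verification factor, had 10.36, 10.28 and 10.34 with PDGF-BB and 10.90, 11.07 and 10.95 in control. It was 1.56-fold lower (log2 change -0.64, SE 0.06, adjusted p = 0.0016, limma), with all PDGF-BB arrays below all control arrays. Xpc and Ddb2, which recognise lesions across the genome, were 1.48-fold and 1.34-fold lower (adjusted p = 0.0043 and 0.0094, limma). Ercc8, which acts at stalled RNA polymerase, had a log2 change of 0.43, with a control mean of 7.37 under the background level.

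Of 9 genes of non-homologous end joining, which ligates breaks without a template, 1 rose and 2 fell (11.1% and 22.2%). Of all genes, 10.1% rose and 11.4% fell. Paxx, a scaffold of the pathway, was 1.56-fold lower (adjusted p = 0.0033, limma) and Polm, a polymerase of it, 1.23-fold lower (adjusted p = 0.014); the Polm call was lost without PDGF-BB array 2 (0.053). Xrcc6, the Ku70 subunit, rose 1.3-fold (adjusted p = 0.045), a call lost without PDGF-BB array 1 (0.080), 2 (0.13) or 3 (0.10) or control array 2 (0.11) or 3 (0.11). Of 17 genes of base excision and single-strand break repair 4 rose and 1 fell, among them Apex2, an endonuclease, 1.55-fold higher (adjusted p = 0.0033, limma), and Parp1, the sensor of strand breaks, 1.28-fold higher (adjusted p = 0.016), a call lost without PDGF-BB array 2 (0.059). Mpg, a glycosylase, rose 1.21-fold (adjusted p = 0.027) and Aptx, aprataxin, was 1.24-fold lower (adjusted p = 0.041). The Mpg call ended without PDGF-BB array 2 or 3 or control array 2 or 3 (0.076 to 0.093) and with the replicate number blocked (0.052), and the Aptx call without any 1 array other than control array 1 (0.080 to 0.12). Whether these pathways differ from homologous recombination in their response was not tested.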
